A study of Mus musculus with 43 samples.

Results

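The proteasome genes described here are 41 genes: the 14 constitutive subunits of the 20S core particle, 18 subunits of the 19S cap, 4 assembly factors, 4 genes of alternative activators, and Nfe2l1, the transcription factor best known for driving their expression. They were chosen by gene symbol from a list of names, and all 41 were found as rows of both expression tables, which hold 24327 symbols (FPKM table) and 25080 symbols (TPM table). No member had a repeated row. All cells were mouse embryonic fibroblasts (MEFs), cells grown out of mouse embryos, and polyadenylated RNA was sequenced from stranded libraries.

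The series holds 43 libraries in 13 groups. In the siRNA experiment, MEFs received a control siRNA or an siRNA against Son, which encodes a scaffold protein of nuclear speckles, and each was given DMSO or tunicamycin, an inhibitor of N-linked glycosylation that stresses the endoplasmic reticulum (4 groups of 4 libraries). In the CRISPRa experiment, a guide RNA is meant to switch on a gene through a catalytically dead Cas9. MEFs carried a control sgRNA or a Son sgRNA, the latter with a genotype label that names Son overexpression. They were likewise given DMSO or tunicamycin (4 groups of 3 libraries). In the drug experiment, wild-type MEFs were kept for 24 hours in DMSO or a drug (5 groups of 3 libraries). The drugs were the tyrosine kinase inhibitors nintedanib (3 µM) and ponatinib (1 µM), the DNA-intercalating acridine dye proflavine hemisulfate (3 µM), and the anthelmintic dye pyrvinium pamoate (1 µM). The labels and protocols used here state neither strain, embryo age nor passage, nor the tunicamycin dose or time, nor whether replicates were separate cultures.

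The proteasome degrades proteins tagged with ubiquitin. Its 20S core is a barrel of alpha and beta rings in which the beta subunits Psmb5, Psmb6 and Psmb7 carry the chymotrypsin-like, caspase-like and trypsin-like activities. The 19S cap recognises ubiquitin chains, removes them and unfolds the substrate with a ring of ATPases (Psmc1 to Psmc6), while the activators Psme1 to Psme4 open the core without ubiquitin. Nfe2l1 protein is made in the endoplasmic reticulum membrane, extracted by the ATPase p97 (Vcp), deglycosylated by Ngly1 and cleaved by Ddi2 before it acts in the nucleus on antioxidant response elements of proteasome genes.

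Summed values were 392308 to 422871 FPKM in the siRNA libraries and 952123 to 989105 TPM in the drug libraries. CRISPRa libraries summed to 380638 to 423498 FPKM, except library C of the Son sgRNA group in DMSO, at 498414 FPKM. Against the mean of the control sgRNA libraries in DMSO, the median log2 difference of the 41 proteasome genes was 0.41 in library C, 0.026 in library A and 0.086 in library B. In library C the log2 difference ran down with transcript length (Spearman rho −0.65 across 11170 genes of that library, which are not independent), against 0.12 in library A and −0.084 in library B. The 41 proteasome genes have short transcripts, with a median longest annotated transcript of 1970 bases (859 to 6491 bases) against 3371.5 bases over all genes tested. Values fitted without library C are therefore given beside those that use it. Son itself fell from 43.5 to 21.8 FPKM with Son siRNA in DMSO and from 36.0 to 15.4 FPKM in tunicamycin, whereas the 3 libraries labelled Son sgRNA in DMSO held 29.8 to 51.9 FPKM beside 46.4 to 48.3 FPKM in the control sgRNA libraries, so the group is called by its label only. Of 10 fibroblast markers, 8, 8 and 9 averaged at least 1 in the DMSO controls of the siRNA, CRISPRa and drug experiments. Thy1 was below 1 in all 3 experiments, Pdgfra in the siRNA and Col1a2 in the CRISPRa experiment. Epithelial and endothelial markers did not reach a mean of 1 in the DMSO controls.

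**Figure D1:**
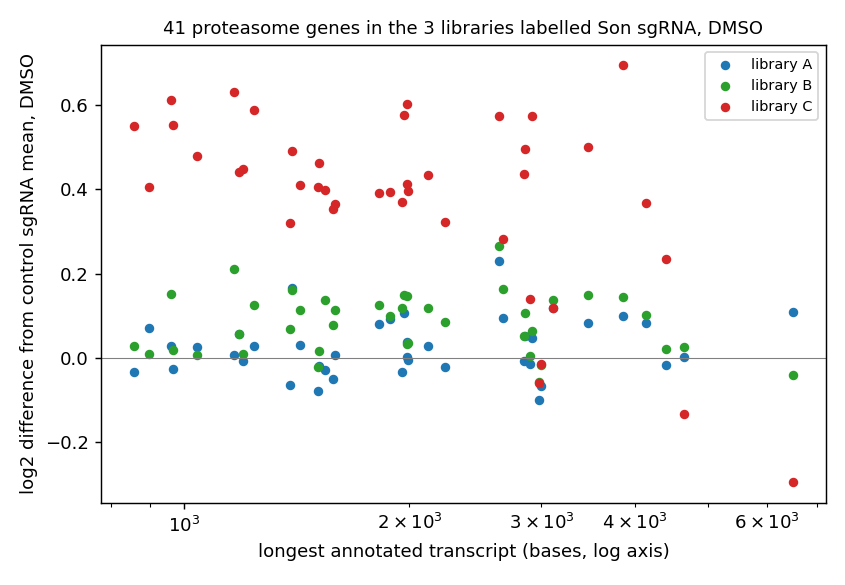
Log2 difference of each of the 41 proteasome genes from the control sgRNA mean in DMSO (vertical axis) against its longest annotated transcript in bases (horizontal, log axis), for the 3 libraries labelled Son sgRNA. Library C lies above the others for most genes, with a median of 0.41, and drops below 0 for the longest transcript.

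Differences below are log2 of FPKM or TPM plus a pseudocount of 1, tested with limma across all genes of the experiment with Benjamini-Hochberg adjustment, and a gene is called raised or lowered at an adjusted p under 0.05. All comparisons within an experiment share libraries, so their results are not independent. These are bulk samples, so fewer cells of a type and less RNA per cell cannot be told apart.

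Nfe2l1 RNA rose with tunicamycin in control siRNA cells while 12 of 14 genes of the 20S core fell, Son siRNA lowered the PA28 genes Psme1 and Psme2, and nintedanib and ponatinib lowered most core and cap genes. With tunicamycin in control siRNA cells, 4 rose and 30 fell, beside 26.6% raised and 42.4% lowered among 10883 genes tested, and the members' median log2 change was −0.16 beside −0.061 for all genes. After removal of the trend of log2 change with transcript length, the split was 8 raised and 21 lowered, beside 3707 raised and 3666 lowered among all genes. In the same comparison 6 of 7 fibroblast markers tested fell, with summed levels of 2541 to 2697 FPKM in DMSO and 1653 to 2009 FPKM in tunicamycin. Of 3 neural and glial markers Tubb3 alone averaged at least 1, and the summed level was 1.71 to 2.4 FPKM in DMSO and 5.98 to 8.79 FPKM in tunicamycin. The part of these markers in the proteasome results was not tested. In Son siRNA cells tunicamycin raised 4 and lowered 21, beside 26.1% and 41.1% of all genes, with a median of −0.081 beside −0.054. Scaling by median ratios made that split 6 to 12, beside 3517 raised and 3704 lowered among all genes, and removal of the length trend made it 9 to 11, beside 3552 and 3641. With Son siRNA in DMSO, 3 rose and 8 fell, beside 20% and 16.1%, with a median of 0.027 beside 0.025. With Son siRNA in tunicamycin, 21 rose and 4 fell, beside 30.6% and 20.4%, with a median of 0.086 beside 0.039, and under median-ratio scaling the split was 20 to 8, beside 2795 raised and 2558 lowered among all genes.

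In the CRISPRa experiment, tunicamycin raised 2 and lowered 4 members in control sgRNA cells, beside 24.2% and 14.1% of 11218 genes. Without library C the same control libraries gave 6 raised and 15 lowered, beside 33.5% and 21.4%, with 1 estimate of the spread shared by all groups. In cells labelled Son sgRNA, tunicamycin raised 1 and lowered 24, beside 22.7% and 26.6%, with a median of −0.26. Without library C the count was 2 raised and 24 lowered, beside 24.5% and 28.5%, with a median of −0.16. The Son sgRNA label against control in DMSO gave 1 raised gene, Psmd9, beside 9.11% raised and 5.29% lowered. When library C was left out it gave 3 raised, beside 11.7% and 6.64%. When library A was left out it gave 18 raised, with no share over all genes given here for that fit. In tunicamycin no member passed, beside 2.59% and 6.86%, and a single member had an unadjusted p under 0.05. Fitted without library C, the same tunicamycin libraries gave 1 raised and 2 lowered members, beside 6.56% and 13.8%. Fibroblast markers moved in these libraries too. Of 8 tested, tunicamycin raised 1 and lowered 4 in control sgRNA cells, raised 1 and lowered 6 in cells labelled Son sgRNA, and the Son sgRNA label lowered 4 in DMSO and 3 in tunicamycin. Without library C these counts of lowered markers were 5, 6, 4 and 7. Their summed level was 1858 to 2033 FPKM in control sgRNA cells in DMSO and 1463 to 1565 FPKM in tunicamycin, and 1683 to 1702 FPKM and 1137 to 1336 FPKM in cells labelled Son sgRNA. Neural and glial markers summed to 3.04 to 3.19 FPKM and 4.86 to 5.16 FPKM in control sgRNA cells in DMSO and tunicamycin, with 3.82 to 4.97 FPKM and 4.54 to 5.73 FPKM under the Son sgRNA label. Blood and macrophage markers summed to 4.27 to 9.59 FPKM over the 12 libraries, the highest under the Son sgRNA label in DMSO. The part of these markers in the proteasome results was not tested.

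Among the drugs, nintedanib raised 4 and lowered 33 of the 41, beside 34.3% raised and 22.1% lowered among 12132 genes, with a median of −0.28 beside 0.040 for all genes. Ponatinib raised 3 and lowered 34, beside 41.1% and 21.4%, with the same median of −0.28 beside 0.097. Scaling libraries by median ratios moved the ponatinib median of all genes by −0.11, to −0.012, and the members' median to −0.39. Proflavine raised 16 and lowered 8, beside 27.8% and 42.4%, with a median of 0.042 beside −0.089, and scaling by median ratios made the split 19 to 3, beside 4236 raised and 4580 lowered among all genes. Removal of the length trend made it 26 to 4, beside 4540 and 4449. Pyrvinium raised 11 and lowered 24, beside 36.6% and 40.8%, with a median of −0.18 beside −0.032. Fibroblast markers moved in the same libraries: of 9 tested, nintedanib and ponatinib each raised 3 and lowered 5, proflavine raised 1 and lowered 8, and pyrvinium lowered 8. Their summed level was 5981 to 6008 TPM in DMSO, 3835 to 3983 TPM with nintedanib, 3997 to 4215 TPM with ponatinib, 4032 to 4250 TPM with proflavine and 1791 to 1898 TPM with pyrvinium. Of 4 blood and macrophage markers Cd68 alone averaged at least 1, and the summed level was 5.4 to 6.63 TPM in DMSO and 9.78 to 16.8 TPM with the drugs. Neural and glial markers summed to 17.2 to 19.4 TPM in DMSO and 28.4 to 29.2 TPM with nintedanib. Of 3 skeletal muscle markers Des alone averaged at least 1 in DMSO, and the summed level was 1.92 to 2.28 TPM in DMSO, 3.56 to 4.78 TPM with nintedanib, 2.7 to 3.43 TPM with ponatinib, 0.527 to 0.641 TPM with proflavine and 1.75 to 2.13 TPM with pyrvinium. Des was called raised by nintedanib and ponatinib and lowered by proflavine. Epithelial markers summed to 0.687 to 1.48 TPM in DMSO and 1.04 to 16.9 TPM with nintedanib, and endothelial markers to 0.355 to 0.407 TPM in DMSO and 1.99 to 2.24 TPM with proflavine. The part of these markers in the proteasome results was not tested.

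**Figure D2:**
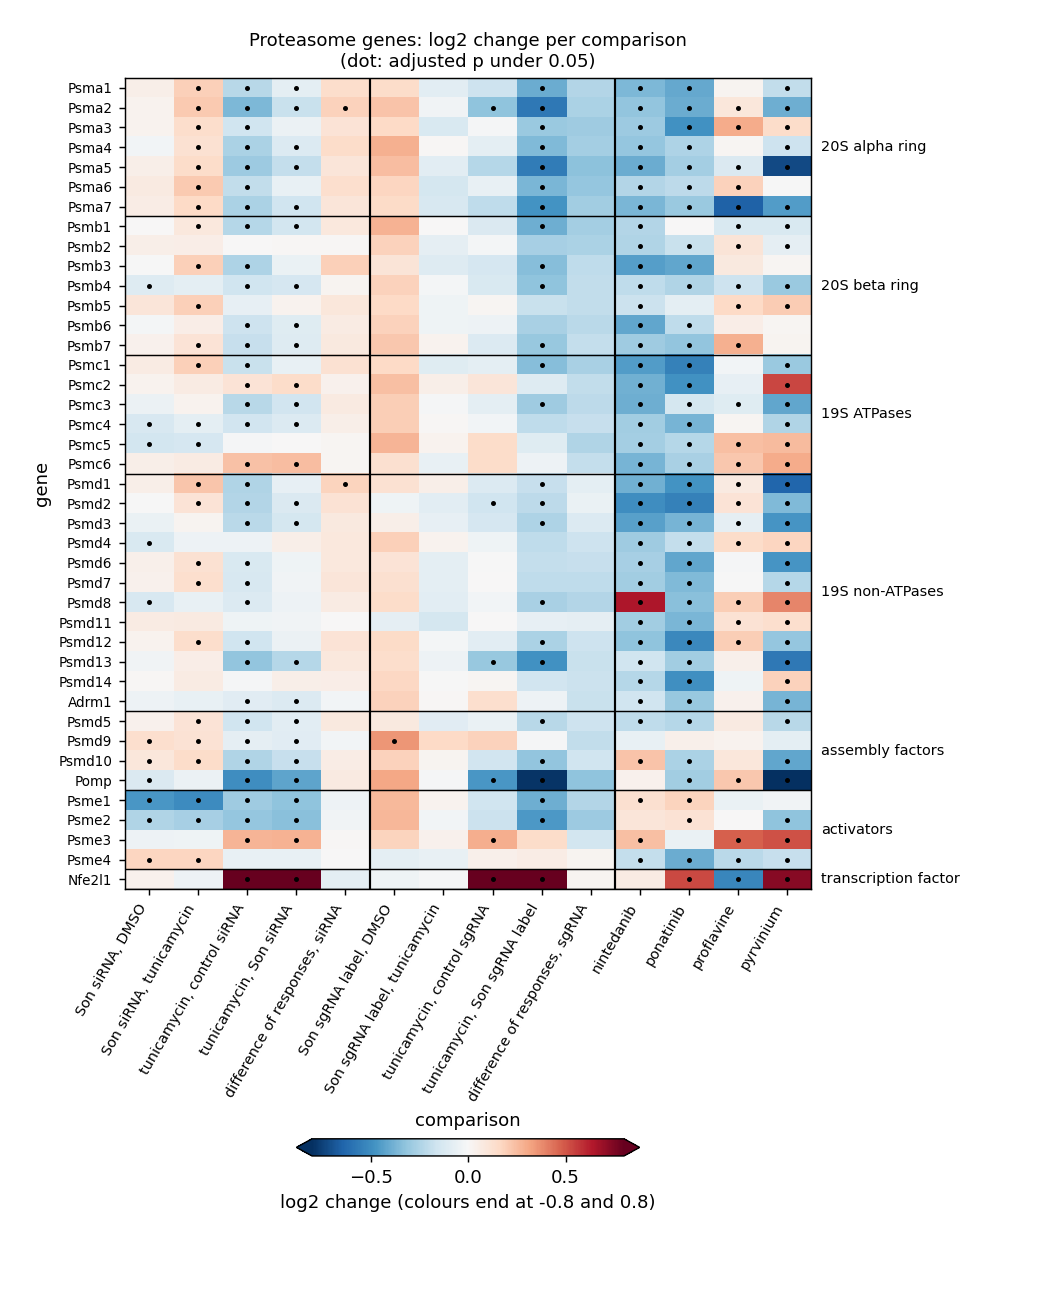
Log2 change of each of the 41 proteasome genes (rows, by role) in the 14 comparisons (columns); red is higher, blue lower, and a dot marks an adjusted p under 0.05. Nintedanib and ponatinib columns are blue for most subunits, with 33 and 34 genes lowered, whereas proflavine shows 16 raised.

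Within DMSO control cells the per-length levels differed more than 10 times between members. Psmb4, a beta ring subunit, was the highest member in each experiment, at 197 ± 7.79 FPKM (SD, n = 4) in control siRNA cells, 229 ± 5.32 FPKM (n = 3) in control sgRNA cells and 614 ± 16.9 TPM (n = 3) in the drug controls. At the other end, the assembly chaperone Psmd9 averaged 18.7 FPKM in control siRNA cells, followed by the assembly chaperone Psmd10 at 20.6 FPKM and Psme4, the nuclear activator PA200, at 21.2 FPKM. Psmd10 and Psme4, neighbours in that order, overlapped between libraries, Psmd10 at 19.7, 21.0, 20.3 and 21.5 FPKM and Psme4 at 21.0, 20.6, 22.2 and 21.2 FPKM. In control sgRNA cells Psme4 was the lowest member at 17.3 FPKM, followed by Psmd9 at 20.3 FPKM and Psmd10 at 25.7 FPKM. In the drug controls Psmd9 was the lowest at 48.2 TPM, followed by Psme4 at 54.0 TPM and Psmd10 at 58.4 TPM. The levels are set by FPKM or TPM and cannot be compared between experiments.

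Nfe2l1 lies at chr11:96817414-96829968 on the minus strand of GRCm38 (mm10). Its promoter and that of Psmb5 are shown because Nfe2l1 is the member with the greatest change under tunicamycin and Psmb5 is a textbook gene of its pathway. Each window runs from 250 bases before to 50 bases after the start in RefSeq (GRCm38.p6), 5′ to 3′ on the gene's strand, and capitals mark matches of the antioxidant response element core TGANNNNGC on either strand.
Nfe2l1: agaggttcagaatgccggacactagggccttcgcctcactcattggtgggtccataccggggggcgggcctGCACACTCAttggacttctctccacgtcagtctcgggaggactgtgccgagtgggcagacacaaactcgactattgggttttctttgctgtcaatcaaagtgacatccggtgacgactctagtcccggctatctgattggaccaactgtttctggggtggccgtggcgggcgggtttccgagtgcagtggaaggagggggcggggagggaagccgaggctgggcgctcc
Psmb5: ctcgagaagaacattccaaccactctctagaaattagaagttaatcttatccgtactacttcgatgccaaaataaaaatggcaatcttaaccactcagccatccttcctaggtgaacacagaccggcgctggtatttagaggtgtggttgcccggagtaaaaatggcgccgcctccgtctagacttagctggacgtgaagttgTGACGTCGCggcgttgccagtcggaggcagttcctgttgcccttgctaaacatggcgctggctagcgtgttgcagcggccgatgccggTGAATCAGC
The table holds 5 windows for Nfe2l1, and the one shown, chr11:96829919-96830218 on the minus strand, starts at the 5′ end of the annotated gene and has the core on the reverse strand. The Psmb5 window is chr14:54617946-54618245 on the minus strand and holds the core before the start and again after it. Of the 35 members with a promoter in the table, 20 (57.1%) held the core in at least 1 window, beside 45% of 27025 genes. All 4 beta ring genes with a window (Psmb3, Psmb4, Psmb5 and Psmb6) held it, as did 4 of 7 alpha ring genes. Psmb1, Psmb2 and Psmb7 had no window. The core stood in 2 of 5 cap ATPase genes, 5 of 10 other cap genes, 2 of 4 assembly factors and 2 of 4 activators. The NF-Y box CCAAT stood in 14 of 35 members (40%) and in 41.1% of all genes. A match describes the letters only and is not a binding site.

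Tunicamycin raised Nfe2l1 RNA in every arm. In control siRNA cells it was at 66.3, 67.6, 67.1 and 69.4 FPKM in DMSO and 156, 149, 155 and 172 FPKM in tunicamycin. All tunicamycin libraries stood far above all DMSO libraries. The log2 change was 1.21 (SE 0.036, limma adjusted p = 1.85e-14), from 67.6 ± 1.31 to 158 ± 9.84 FPKM (SD, n = 4 each), a ratio of 2.34. Son siRNA cells held 70.4, 68.9, 69.7 and 68.4 FPKM in DMSO and 155, 148, 152 and 159 FPKM in tunicamycin, again without overlap, a log2 change of 1.13 (limma adjusted p = 6.06e-14). The difference between these responses was −0.08, with an adjusted p of 0.419, and Son siRNA itself gave 0.04 in DMSO (adjusted p = 0.439) and −0.04 in tunicamycin (adjusted p = 0.355). Control sgRNA cells held 80.9, 81.2 and 82.0 FPKM in DMSO and 164, 172 and 166 FPKM in tunicamycin, a log2 change of 1.03 (SE 0.06, limma adjusted p = 1.87e-07). Cells labelled Son sgRNA held 81.5, 82.9 and 74.2 FPKM in DMSO and 165, 156 and 177 FPKM in tunicamycin, a log2 change of 1.05, or 1.00 without library C.

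The drugs split Nfe2l1 in both directions. DMSO libraries held 175, 176 and 183 TPM. Ponatinib libraries held 256, 259 and 257 TPM, all above DMSO, a log2 rise of 0.53 (SE 0.028, limma adjusted p = 5.72e-10). Pyrvinium libraries were higher still at 300.1, 297 and 291 TPM, a rise of 0.73 (limma adjusted p = 2.82e-12) from 178 ± 4.31 to 296 ± 4.36 TPM. Proflavine libraries, at 122, 124 and 126 TPM, lay below all DMSO libraries, and Nfe2l1 fell by 0.52 (limma adjusted p = 3.19e-10), to 0.695 of its DMSO level. Nintedanib, at 183, 189 and 188 TPM, gave 0.06 with an adjusted p of 0.0585. Tested directly between drugs of equal dose, as 2 of the 6 possible drug pairs with adjustment over all genes in each pair, Nfe2l1 was 0.58 higher (log2) with 3 µM nintedanib than with 3 µM proflavine (limma adjusted p = 5.21e-11) and 0.20 lower with 1 µM ponatinib than with 1 µM pyrvinium (limma adjusted p = 7.41e-06).

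**Figure D3:**
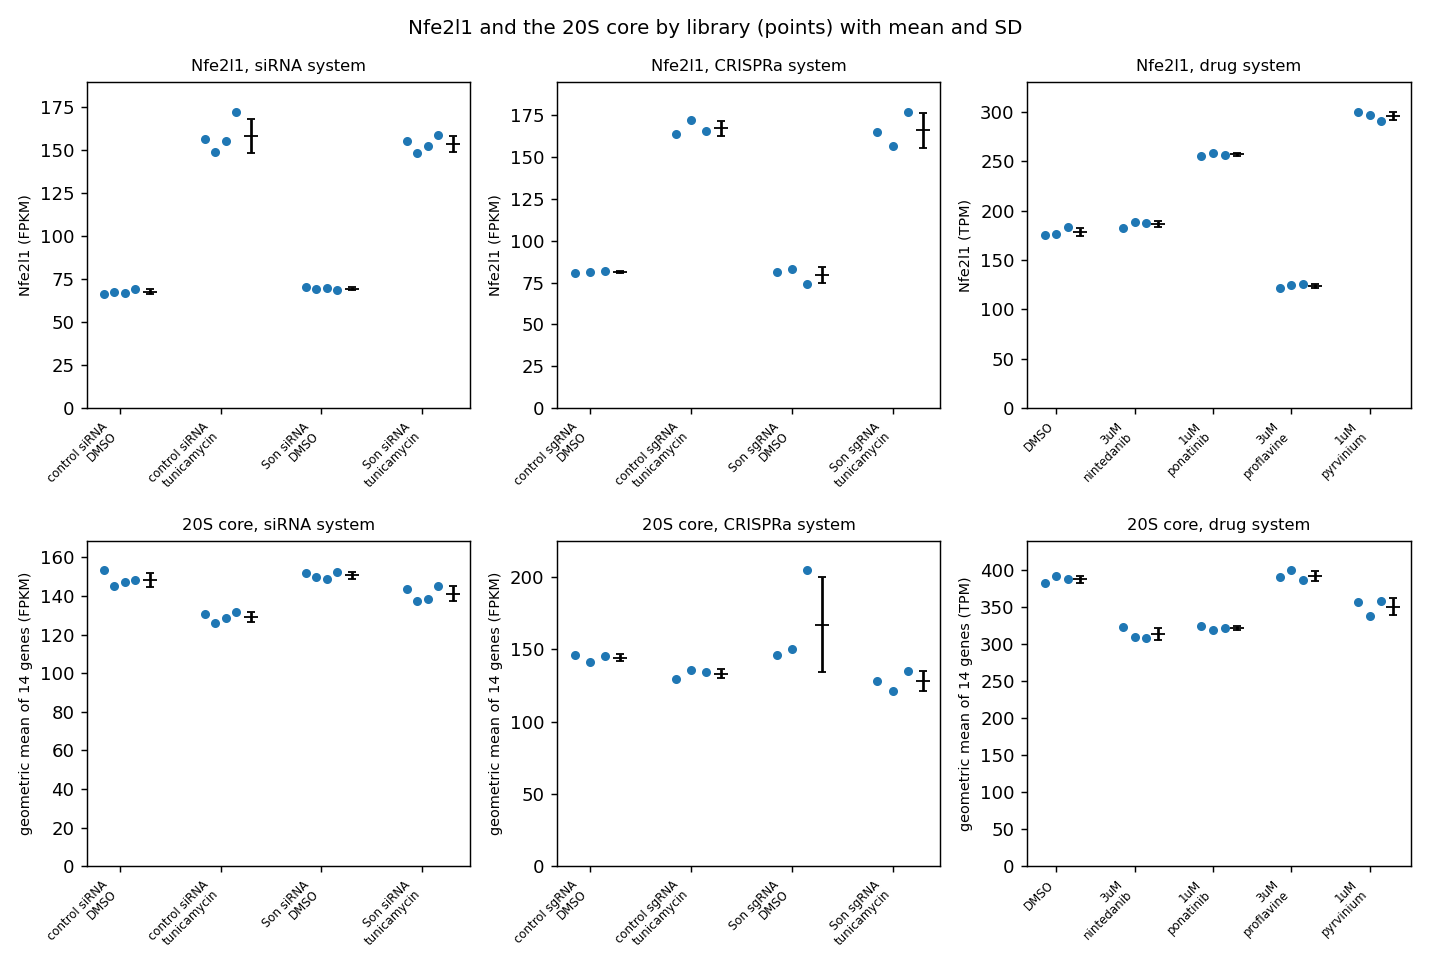
Nfe2l1 (top row) and the geometric mean of the 14 genes of the 20S core (bottom row) in FPKM or TPM, by group, with 1 point per library and the mean ± SD beside the points. Nfe2l1 rises from 67.6 to 158 FPKM with tunicamycin in control siRNA cells while the core goes from 148 to 129 FPKM, and library C stands alone in the group labelled Son sgRNA in DMSO.

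The 20S core genes were lower with tunicamycin in the same cells in which Nfe2l1 rose. In control siRNA cells 12 of 14 fell and none rose, with a median log2 change of −0.21, and the geometric mean of the 14 genes was 148 FPKM in DMSO and 129 FPKM in tunicamycin. All 7 alpha ring genes fell. Psma2, an alpha ring subunit, was at 173, 157, 166 and 159.9 FPKM in DMSO and 129, 127, 127 and 127 FPKM in tunicamycin, with no overlap. Its log2 change was −0.36 (SE 0.03, limma adjusted p = 1.43e-08). Among the catalytic subunits, Psmb7 fell by 0.18 and Psmb6 by 0.17. Psmb5, at 177, 167, 154 and 164 FPKM in DMSO and 159, 154, 155 and 166 FPKM in tunicamycin, overlapped and gave −0.06 (adjusted p = 0.151). With the length trend removed, 2 core genes rose and 9 fell, Psmb5 was raised by 0.12, and Psmb6 stood at 0.010.

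In tunicamycin, core genes stood higher with Son siRNA than with control siRNA. In Son siRNA cells tunicamycin lowered 9 of 14 core genes, with a median of −0.10 and geometric means of 151 and 141 FPKM. This direction depended on the scaling: 4 were lowered under median-ratio scaling (median −0.049), and with the length trend removed 2 rose and 2 fell, with a median of 0.0022. Compared directly in tunicamycin, Son siRNA raised 11 of the 14 core genes against control siRNA and lowered none, with a median of 0.14, including all 7 alpha ring genes and Psmb1, Psmb3, Psmb5 and Psmb7. Psma2 stood at 151, 144, 143 and 153 FPKM in Son siRNA tunicamycin libraries, all above the control siRNA tunicamycin libraries, a rise of 0.21 (SE 0.03, limma adjusted p = 2.13e-05). The alpha subunit Psma6 went from 124, 117, 117 and 120.1 FPKM to 137, 134, 135 and 148 FPKM, also a rise of 0.21 (limma adjusted p = 9.92e-05). Psmb5 went from 158 ± 5.51 to 181 ± 3.48 FPKM, a rise of 0.19 (limma adjusted p = 0.000607), and Psmb7 rose by 0.11, whereas Psmb6 gave 0.05 with an adjusted p of 0.175. In DMSO, Son siRNA raised none of the core genes and lowered 1, Psmb4, by 0.10, while Psmb5 gave 0.10 with an adjusted p of 0.0512.

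The difference between the tunicamycin responses of Son siRNA and control siRNA cells was tested for each gene. Its median was 0.076 over the 41 members, beside 0.0091 for all genes. It passed for 2 members, Psma2 at 0.18 (SE 0.042, limma adjusted p = 0.0384) and Psmd1, a base subunit of the 19S cap, at 0.18 (SE 0.041, limma adjusted p = 0.0399), beside 0.827% of all genes raised and 0.855% lowered. Without the filter on low values neither passed, at an adjusted p of 0.0629 for Psma2. At an unadjusted p under 0.05 there were 12 members, beside 2071 of the 10883 genes.

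In the CRISPRa experiment, tunicamycin lowered 1 core gene in control sgRNA cells, Psma2, from 141, 137 and 141 FPKM to 111, 111 and 114 FPKM, a log2 change of −0.32 (limma adjusted p = 0.0466). That call was lost when any of 9 libraries was left out and, at 0.0892, without the filter on low values. Fitted without library C, the Psma2 change was again −0.32 (limma adjusted p = 0.00013), and 7 of 14 core genes were called lowered. In cells labelled Son sgRNA, 11 core genes fell, with a median of −0.35, and without library C again 11 fell, with a median of −0.19. Psma2 held 145, 146 and 208 FPKM in DMSO, the last in library C, and 108, 103 and 119 FPKM in tunicamycin, a change of −0.57, or −0.40 without library C. Psma5, another alpha subunit, was at 96.7, 103 and 143 FPKM in DMSO and 79.9, 68.9 and 79.7 FPKM in tunicamycin, a change of −0.56, or −0.39 without library C. The difference between the tunicamycin responses of the sgRNA labels was called for 0 of 11218 genes by limma, with 908 genes and 1 member at an unadjusted p under 0.05. Without library C it was called for 1 gene, which is not a member.

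Nintedanib lowered all 14 core genes (median −0.30), and ponatinib lowered 12 (median −0.26). The geometric mean of the core was 387 TPM in DMSO, 313 TPM with nintedanib and 321 TPM with ponatinib. Psmb6 went from 475, 498 and 493 TPM in DMSO to 369.5, 359 and 370.0 TPM with nintedanib, a fall of 0.42 (limma adjusted p = 2.17e-08), and fell by 0.20 with ponatinib. Psmb3, a beta ring subunit, went from 495, 495 and 493 TPM to 381, 357 and 355 TPM with nintedanib, a log2 change of −0.44 (limma adjusted p = 9.14e-08). Every nintedanib library of both genes was below every DMSO library. Psmb7 fell by 0.28 with nintedanib and by 0.32 with ponatinib, and Psmb5 fell by 0.17 with nintedanib (limma adjusted p = 0.00699) and gave −0.08 with ponatinib (adjusted p = 0.177).

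Proflavine and pyrvinium each called core genes in both directions. With proflavine 6 rose and 4 fell. Psma7, an alpha subunit, was at 383, 387 and 384 TPM in DMSO and 245, 261 and 232 TPM with proflavine, a log2 change of −0.64 (SE 0.039, limma adjusted p = 1.23e-09), while Psma3, of the same ring, went from 196, 187 and 196 TPM to 234, 244 and 235 TPM, a rise of 0.30 (limma adjusted p = 1.04e-05). Neither gene overlapped between the groups. Psmb7 rose by 0.28 with proflavine and Psmb5 by 0.16, the latter with 1 proflavine library, at 445 TPM, below the highest DMSO library. Pyrvinium raised 2 core genes and lowered 8, and Psma5 went from 284, 289.9 and 287 TPM to 181, 169 and 170.4 TPM, a log2 change of −0.72 (limma adjusted p = 1.38e-10). Psmb5 rose by 0.20 with pyrvinium (limma adjusted p = 0.00146), with all libraries, at 519.9, 481 and 489.6 TPM, above DMSO at 414, 449 and 432 TPM, while Psmb6 and Psmb7 did not pass.

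**Figure D4:**
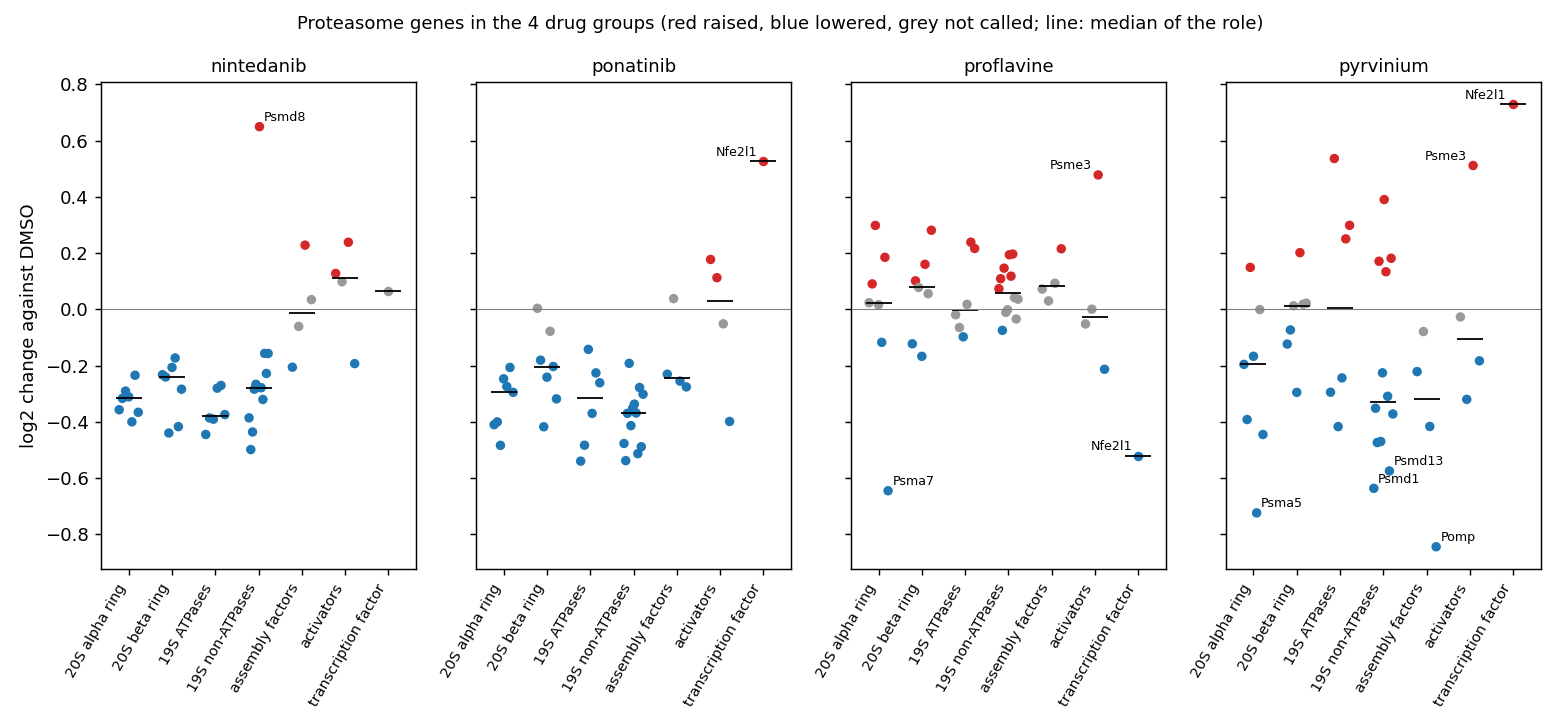
Log2 change against DMSO of each proteasome gene, by role, for the 4 drugs; red points are raised, blue lowered, grey not called, and bars are role medians. Nintedanib and ponatinib lowered nearly all 20S and 19S genes apart from Psmd8 with nintedanib, at 0.65, whereas proflavine and pyrvinium spread the subunits to both sides of 0.

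The 19S cap genes were called in both directions with tunicamycin. In control siRNA cells 2 cap genes rose and 12 fell (median −0.13), and with the length trend removed 4 rose and 7 fell. Psmc6, an ATPase of the base, rose from 112, 106, 111 and 111 FPKM to 134, 124, 125 and 134 FPKM, a log2 change of 0.23 (SE 0.033, limma adjusted p = 9.1e-06). The ATPase Psmc2 rose by 0.11. Psmd13, a lid subunit, went from 59.9, 56.2, 59.7 and 59.0 FPKM to 49.3, 44.7, 47.3 and 46.6 FPKM, a log2 change of −0.32 (limma adjusted p = 8.8e-08). Neither Psmc6 nor Psmd13 overlapped between media. In Son siRNA cells Psmc6 rose by 0.25, Psmc2 by 0.15, and 6 cap genes fell, Psmd13 by 0.23. Over the whole cap the median there was −0.044, but 0.0067 with median ratios as scaling factors and 0.016 once the length trend was removed. Psmd13 also fell with tunicamycin in control sgRNA cells, by 0.31 (limma adjusted p = 0.0145), and by 0.49 in cells labelled Son sgRNA, or by 0.36 without library C. In those cells 8 cap genes fell and none rose, with or without library C.

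Son siRNA in tunicamycin raised 6 cap genes and lowered 2. Psmd1, the scaffold of the base, was at 73.7, 70.1, 71.9 and 70.5 FPKM with control siRNA and 84.0, 81.4, 81.2 and 88.0 FPKM with Son siRNA, a rise of 0.22 (SE 0.029, limma adjusted p = 1.11e-05) without overlap. The base ATPase Psmc5 was lowered by Son siRNA in DMSO, from 141, 129.9, 144 and 137 FPKM to 123, 124, 128 and 123 FPKM, a log2 change of −0.14 (limma adjusted p = 0.00768). It was also lowered in tunicamycin, by −0.13 (limma adjusted p = 0.00918), where the libraries overlapped. Psmc4, Psmd4 and Psmd8 were the other cap genes lowered by Son siRNA in DMSO, and none was raised.

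Among the drugs, nintedanib lowered 17 of 18 cap genes and raised Psmd8, a lid subunit at chr7:29174188-29180701 on the minus strand of GRCm38 (mm10). Its promoter (RefSeq GRCm38.p6, chr7:29180624-29180923, minus strand) is shown as that of the only cap gene raised by nintedanib, and the capitals mark the core TGANNNNGC, found on the reverse strand after the start.
Psmd8: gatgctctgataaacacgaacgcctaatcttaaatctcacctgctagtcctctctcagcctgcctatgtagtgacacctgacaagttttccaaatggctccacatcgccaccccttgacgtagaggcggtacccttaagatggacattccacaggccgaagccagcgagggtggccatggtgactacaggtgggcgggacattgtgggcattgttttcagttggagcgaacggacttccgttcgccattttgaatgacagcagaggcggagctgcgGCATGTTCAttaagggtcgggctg
Psmd8 was at 268, 274 and 279 TPM in DMSO and 435, 427 and 426 TPM with nintedanib, all above DMSO. The log2 change was 0.65 (SE 0.055, limma adjusted p = 9.91e-08), a ratio of 1.57. Ponatinib libraries, at 218, 217 and 213 TPM, were all below DMSO. Pyrvinium libraries spread more, at 352, 325 and 403 TPM, and gave a rise of 0.39. At equal dose Psmd8 was 0.46 higher with nintedanib than with proflavine (limma adjusted p = 1.96e-06) and 0.73 lower with ponatinib than with pyrvinium (limma adjusted p = 8.43e-09).

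Nintedanib and ponatinib both lowered Psmd2, a docking subunit of the base. It went from 424, 411 and 423 TPM in DMSO to 291, 298 and 301 TPM with nintedanib (log2 change −0.50, limma adjusted p = 6.19e-10). With ponatinib it held 284, 295 and 287 TPM (−0.54, limma adjusted p = 3.34e-10). The ATPase Psmc1 went from 286, 288 and 280.1 TPM to 217, 206 and 205 TPM with nintedanib, and to 196 ± 4.3 TPM (SD, n = 3) with ponatinib. Ponatinib lowered all 18 cap genes, with a median of −0.37, or −0.49 under median-ratio scaling, and Psmd12, a lid subunit, fell by 0.51. In the same libraries the core fell by a median of 0.26.

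Proflavine raised 8 cap genes and lowered 2, with a median of 0.039. Pyrvinium called all 18 cap genes, 7 raised and 11 lowered. Psmc2 went from 307, 318 and 327 TPM to 468, 452 and 463 TPM with pyrvinium, a rise of 0.54 (limma adjusted p = 8.3e-10), and the ATPases Psmc6 and Psmc5 rose by 0.30 and 0.25. In the same libraries Psmd1 went from 202, 196 and 201 TPM to 129, 127 and 128 TPM, a log2 change of −0.64 (limma adjusted p = 2.5e-11), and Psmd13 fell by 0.57. Neither Psmc2 nor Psmd1 overlapped with DMSO. Psmc2 was 1.02 lower with ponatinib than with pyrvinium at the same dose (limma adjusted p = 6.28e-13).

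Pomp, the maturation protein that helps beta rings form around new alpha rings, lies at chr5:147860461-147876456 on the plus strand of GRCm38 (mm10) and fell with tunicamycin in all 4 arms. In control siRNA cells it was at 187, 166, 174 and 175 FPKM in DMSO and 128, 129.8, 123 and 116 FPKM in tunicamycin. In Son siRNA cells it was at 164, 159, 161 and 162 FPKM and 120.2, 118, 117 and 126 FPKM. Neither pair overlapped. The log2 changes were −0.50 (SE 0.038, limma adjusted p = 5e-09) and −0.42 (limma adjusted p = 5.24e-08). Control sgRNA cells went from 157, 135 and 146 FPKM to 104, 107 and 105 FPKM, a change of −0.47 (SE 0.12, limma adjusted p = 0.0115). Cells labelled Son sgRNA went from 157, 161 and 237 FPKM, the last in library C, to 106, 106 and 103 FPKM, a change of −0.79, or −0.60 without library C. Pyrvinium gave the greatest fall of any member in the drug experiment, from 350.2, 349 and 332 TPM to 197, 189.6 and 187 TPM. That was a log2 change of −0.84 (SE 0.038, limma adjusted p = 2.22e-11), to 0.556 of the DMSO level. Pomp fell by 0.28 with ponatinib, rose by 0.22 with proflavine and gave 0.03 with nintedanib. It was 0.57 higher with ponatinib than with pyrvinium at the same dose (limma adjusted p = 2.33e-09).

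Psmd5, Psmd9 and Psmd10 are chaperones that bind base subunits during cap assembly. Tunicamycin lowered all 4 assembly factors in both siRNA arms, beside 42.4% and 41.1% of all genes. Under median-ratio scaling it lowered 3 and 2 of them, beside 3751 and 3704 of all genes. In control sgRNA cells without library C, Psmd10 and Pomp were lowered, Psmd5 was not called and Psmd9 was raised by 0.19 (limma adjusted p = 0.00397). Under the Son sgRNA label without library C, Psmd5, Psmd10 and Pomp were lowered and Psmd9 was not called. Psmd9 was raised by Son siRNA in DMSO, from 19.36, 18.44, 17.98 and 19.01 FPKM to 20.49, 21.23, 20.49 and 20.26 FPKM, a rise of 0.13 (SE 0.028, limma adjusted p = 0.00153) with every Son siRNA library above every control. It was also the sole member called for the Son sgRNA label in DMSO, from 21.2, 19.5 and 20.1 FPKM to 23.9, 24.6 and 30.6 FPKM. That was a rise of 0.36 (SE 0.081, limma adjusted p = 0.0133), or 0.25 without library C (limma adjusted p = 0.00557), and was lost without control library B or C. Without library C, 3 members were called raised, Psmb1, Psmd1 and Psmd9, beside 11.7% of all genes, and the members' median was 0.054 in place of 0.17. Psmd10, or gankyrin, was raised by 0.09 with Son siRNA in DMSO with overlapping libraries (limma adjusted p = 0.0465). Pomp was lowered in the same comparison by −0.12 (limma adjusted p = 0.0215), a call lost without control library A (adjusted p = 0.0794) or Son siRNA library B (adjusted p = 0.0563). Nintedanib raised Psmd10, from 57.2, 58.7 and 59.4 TPM to 73.3, 67.2 and 65.6 TPM, by 0.23 (limma adjusted p = 0.00119), but the call was lost under median-ratio scaling at 0.14.

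Of the 41 genes, Psme1 had the greatest change with Son siRNA in both media. Psme1 and Psme2 encode the subunits of PA28αβ, a ring known to be induced by interferon gamma. Psme3 encodes PA28γ, its nuclear relative. Psme1 and Psme2 lie close together on chromosome 14 of GRCm38 (mm10), at chr14:55578123-55581529 on the plus strand and chr14:55587441-55591113 on the minus strand. Their promoters (RefSeq GRCm38.p6) are shown because both genes fell with Son siRNA in both media. Capitals mark the interferon-stimulated response element (GAAA, any 2 bases, GAAA, searched on both strands) in Psme1 (chr14:55578244-55578543, reverse strand, after the start) and the core TGANNNNGC in Psme2 (chr14:55590972-55591271, before the start). Psme2 has 2 windows. The other, chr14:55591052-55591351, has its start nearer the 5′ end of the annotated gene, and there the same core lies after the start.
Psme1: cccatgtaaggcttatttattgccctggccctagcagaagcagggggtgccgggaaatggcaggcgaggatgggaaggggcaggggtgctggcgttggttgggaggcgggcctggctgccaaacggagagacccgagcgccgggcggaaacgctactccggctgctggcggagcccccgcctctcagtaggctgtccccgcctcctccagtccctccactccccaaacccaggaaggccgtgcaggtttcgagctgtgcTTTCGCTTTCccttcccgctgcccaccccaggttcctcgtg
Psme2: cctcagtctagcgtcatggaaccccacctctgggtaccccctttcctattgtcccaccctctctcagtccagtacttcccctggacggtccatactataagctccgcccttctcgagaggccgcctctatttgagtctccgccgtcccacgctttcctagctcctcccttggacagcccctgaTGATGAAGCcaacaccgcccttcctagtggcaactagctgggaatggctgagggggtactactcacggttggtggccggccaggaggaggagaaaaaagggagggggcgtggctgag
That element was found in 4 of 35 members (11.4%: Psmb3, Psmd4, Psmd9 and Psme1) and in 3.99% of all genes.

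Psme1 was at 178, 187, 177 and 181 FPKM with control siRNA in DMSO and 129, 125, 140.0 and 130.1 FPKM with Son siRNA. In tunicamycin it was at 162, 147, 148 and 138 FPKM and 105, 102, 108 and 101 FPKM. In either medium all Son siRNA libraries lay below all control libraries. The log2 change was −0.46 in DMSO (SE 0.043, limma adjusted p = 4.58e-07), from 181 ± 4.56 to 131 ± 6.42 FPKM, and −0.50 in tunicamycin (SE 0.043, limma adjusted p = 8.16e-08). Psme2 was at 149, 148, 151 and 153 FPKM with control siRNA and 123, 123, 136 and 126 FPKM with Son siRNA in DMSO, a change of −0.24 (limma adjusted p = 0.000363), and changed by −0.27 in tunicamycin (limma adjusted p = 7.92e-05). Psme4, by contrast, was raised by 0.17 in both media, from 21.0, 20.6, 22.2 and 21.2 FPKM to 23.5, 23.7, 25.2 and 23.7 FPKM in DMSO (SE 0.032, limma adjusted p = 0.000628). Psme3 gave −0.04 in DMSO and was not called in either medium. In the same comparisons Son siRNA lowered 1 of 7 fibroblast markers tested in each medium, and Cd68 fell by 0.19 in DMSO and fell by 0.48 in tunicamycin, with their part in these changes not tested.

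Tunicamycin also lowered Psme1 and Psme2 in both siRNA arms, Psme1 by 0.28 with control siRNA and 0.32 with Son siRNA, and Psme2 by 0.31 and 0.34. Fitted without library C, Psme1 and Psme2 changed by −0.16 and −0.17 in control sgRNA cells (limma adjusted p = 0.00482 and 0.00571). Under the Son sgRNA label they changed by −0.22 and −0.29 (limma adjusted p = 0.00117 and 0.000396). Psme3 went the other way, from 70.9, 60.9, 69.6 and 68.8 FPKM to 83.4, 75.8, 78.8 and 88.6 FPKM in control siRNA cells, a rise of 0.27 (SE 0.051, limma adjusted p = 0.00017) without overlap. It rose by 0.28 in Son siRNA cells. In control sgRNA cells Psme3 rose from 53.5, 52.0 and 52.3 FPKM to 63.8, 66.7 and 63.2 FPKM, by 0.29 (SE 0.064, limma adjusted p = 0.00402). In cells labelled Son sgRNA it gave 0.15 (adjusted p = 0.0792), and 0.20 without library C (limma adjusted p = 0.0116). Psme1 and Psme2 were not called for the Son sgRNA label in either medium, and whether this differs from the effect of Son siRNA was not tested.

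**Figure D5:**
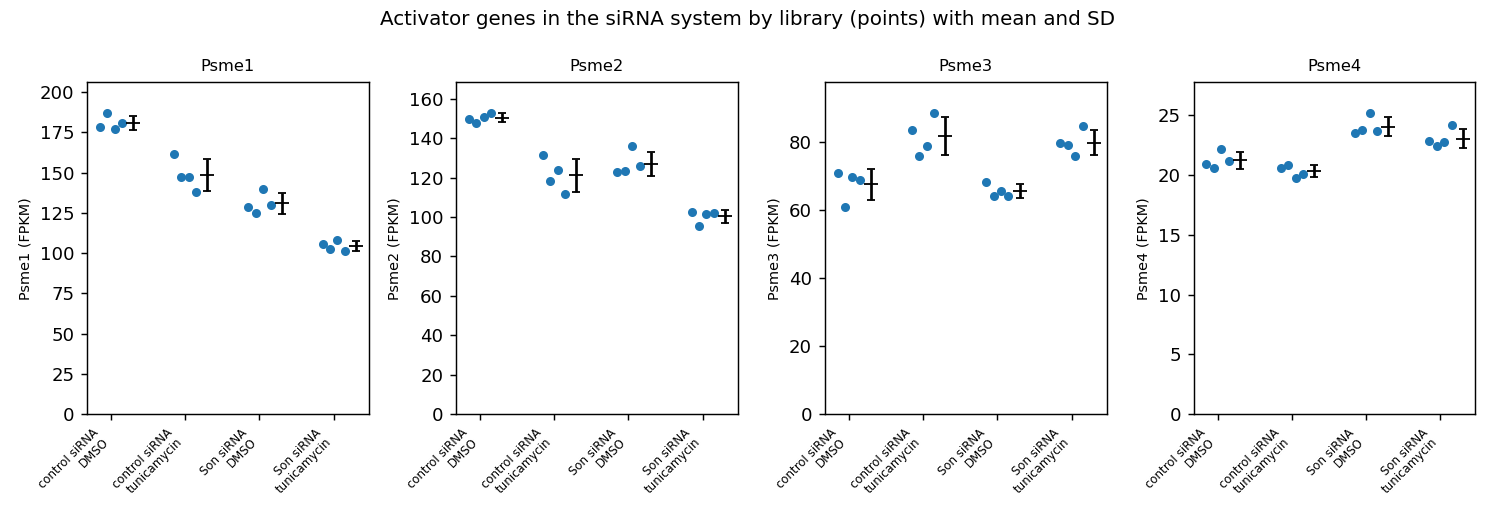
FPKM of the 4 activator genes in the 16 siRNA libraries, with 1 point per library and the mean ± SD beside the points. Psme1 steps down from 181 FPKM in control DMSO cells to 131 FPKM with Son siRNA, while Psme3 is higher in both tunicamycin groups and Psme4 higher in both Son siRNA groups.

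With the drugs, Psme3 was at 104, 100.3 and 104 TPM in DMSO and rose with nintedanib by 0.24 (119, 123 and 123 TPM), with proflavine by 0.48 (142, 140.4 and 148 TPM) and with pyrvinium by 0.51 (150.0, 150.0 and 141 TPM). All of these libraries were above DMSO, and ponatinib, at 96.8, 100.1 and 100.5 TPM, gave −0.05 and did not pass. The limma adjusted p was 2.97e-05, 9.55e-09 and 2.35e-09 for the 3 rises. Psme4 fell with all 4 drugs, by 0.40 with ponatinib (limma adjusted p = 0.000184), from 52.8, 53.6 and 55.6 TPM to 40.3, 40.6 and 41.2 TPM. Its fall was 0.21 with proflavine, 0.18 with pyrvinium and 0.19 with nintedanib, the last lost without nintedanib library 1, at −0.088 (adjusted p = 0.145). Psme2 fell by 0.32 with pyrvinium (limma adjusted p = 4.64e-06), from 319, 355 and 340.0 TPM to 283, 267 and 261 TPM. Psme1 was called raised with nintedanib, by 0.13, and with ponatinib, by 0.18, and both calls were lost under median-ratio scaling, at 0.037 and 0.061. Psme2 was called raised by 0.11 with ponatinib (limma adjusted p = 0.0281), a direction that turned to −0.0042 with median ratios as scaling factors and −0.022 once the length trend was removed. The median of the 4 activators turned likewise under scaling, from 0.031 to −0.086 with ponatinib and from −0.025 to 0.055 with proflavine.

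The interferon-inducible catalytic subunits Psmb8, Psmb9 and Psmb10, which replace Psmb5, Psmb6 and Psmb7 in the immunoproteasome, were lowered by Son siRNA in both media. Son siRNA lowered 16.1% of all genes in DMSO and 20.4% in tunicamycin. In DMSO, Psmb8 went from 44.0 ± 3.59 to 28.7 ± 2.77 FPKM (log2 change −0.60, limma adjusted p = 3.41e-05), Psmb9 changed by −0.46 and Psmb10 by −0.50. Psmb8 and Psmb9 were also lowered in the libraries labelled Son sgRNA, Psmb8 from 93.0 ± 3.85 to 41.5 ± 7.69 FPKM in DMSO (−1.16, limma adjusted p = 1.99e-05, or −1.30 without library C). In DMSO Psmb9 gave −0.34, or −0.48 without library C. The Son sgRNA label lowered 5.29% of all genes in DMSO and 6.86% in tunicamycin. Ponatinib raised all 3, Psmb9 from 41.9 ± 2.17 to 98.7 ± 5.42 TPM (1.22, limma adjusted p = 1e-08). Nintedanib raised 2. Proflavine lowered Psmb9 by 0.87, and pyrvinium raised Psmb9 by 1.02 and lowered Psmb10 by 0.51. Psmb11, the thymus subunit, averaged below 1 in every group.

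Genes that process Nfe2l1 protein or extract substrates from the endoplasmic reticulum formed a list of 7. Tunicamycin raised 5 of them in each of the 4 arms and lowered none, or 6 in control sgRNA cells without library C. Among all genes, 26.6% were raised and 42.4% lowered in control siRNA cells, and 26.1% and 41.1% in Son siRNA cells. The shares were 24.2% and 14.1% in control sgRNA cells, and 22.7% and 26.6% under the Son sgRNA label. Without library C they were 33.5% and 21.4% in control sgRNA cells. Sel1l, the adaptor of the ubiquitin ligase Syvn1, went from 17.8 ± 0.427 to 99.3 ± 18.4 FPKM in control siRNA cells (log2 2.40, limma adjusted p = 7.84e-14), and Syvn1 rose by 2.38. Syvn1 rose less with Son siRNA, at 1.96, with a difference of −0.42 between the responses (limma adjusted p = 0.0295). Vcp fell by 0.56 with nintedanib, fell by 0.40 with ponatinib, fell by 0.22 with proflavine and fell by 0.81 with pyrvinium. Its level was 553 ± 3.77 TPM in DMSO and 314 ± 10.1 TPM with pyrvinium (limma adjusted p = 1.35e-12).

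Of the 9 deubiquitinases and ubiquitin receptors, nintedanib lowered 4 and raised none. Ponatinib lowered 6, among them the cap-bound deubiquitinase Uchl5 by 0.61. Proflavine raised 5 and lowered 2, whereas pyrvinium raised 8 and lowered the receptor Ubqln2 by 0.70. Of the 6 genes for ubiquitin and its activating enzymes, proflavine raised 5 and lowered none, and pyrvinium raised 3, among them Ubb by 0.67 and Rps27a by 0.84, and lowered 1. Nintedanib raised 1 and lowered 3 of the 6, and ponatinib raised 2 and lowered 3. Among all genes the shares raised were 34.3% with nintedanib, 41.1% with ponatinib, 27.8% with proflavine and 36.6% with pyrvinium. The shares lowered were 22.1%, 21.4%, 42.4% and 40.8% in the same order. Among 11 tested genes of other core and assembly factors, Zfand2a, a stress-induced proteasome-associated protein, was raised by all 4 drugs, from 28.7 ± 0.265 TPM in DMSO to 46.2 ± 2.26, 36.3 ± 1.81, 64.6 ± 3.48 and 53.3 ± 4.28 TPM with nintedanib, ponatinib, proflavine and pyrvinium. The whole list of 12 genes summed to 1113 to 1172 TPM in DMSO. With the drugs, in the same order, it summed to 1133 to 1197, 1073 to 1093, 1103 to 1145 and 1095 to 1154 TPM.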

How the data were processed

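Poly(A)-selected RNA from 43 MEF libraries was sequenced. The authors deposited 1 table of FPKM values (siRNA and CRISPRa libraries) and 1 table of TPM values (drug libraries), per the file headers. The submitters' processing notes name Trimmomatic, Trim Galore, HISAT2, Salmon, Cufflinks and the build mm10; versions, the annotation and each table's own tool, not given in the sources used here, are unknown. No counts were used, so read depth is unknown and no counting interval is given. FPKM and TPM are shares of a library: a change in a few abundant genes shifts all others.

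FPKM columns carry letters that cannot be tied to the replicate numbers of the labels, so libraries are named by letter. Columns headed scramble were taken as control siRNA and the other control columns as control sgRNA. The FPKM table held 27 lines with a date in place of a symbol, which were left out, and 275 symbols on 807 lines, for which the line with the highest mean was kept.

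Each experiment was fitted once with limma 3.58.1 (R 4.3.3) on log2(value + 1) over genes with a mean of at least 1, with a mean-variance trend, two-sided tests and Benjamini-Hochberg adjustment over all genes. The fold changes understate those of low genes. Fits were tested on simulated data with independent noise for each gene. That simulation held no library-wide shift or length trend, so it does not cover a library such as C. Nothing in the labels says that replicates are separate cultures, so the p-values cover the spread between these samples, which may be technical. The members and gene lists were chosen with earlier results of these data known. Named members were 9 fixed genes (Nfe2l1, Pomp, the catalytic subunits Psmb5, Psmb6 and Psmb7, and Psme1 to Psme4) and up to 3 called members per direction with the greatest changes in each comparison. Other genes of a role that are named without a rule were chosen after their values were seen. Alternatives were a pseudocount of 0.1, no filter, median-ratio scaling, removal of a lowess trend (span 0.3) of log2 value on transcript length, leaving out each library, a replicate block for the drugs, and, chosen after seeing the data, a block by column letter for the other experiments.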

Additional observations from a re-analysis of the deposited data

Results flagged for a closer look

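In 10 of the 164 groups of 4 siRNA libraries (41 genes in 4 groups), the highest or lowest library stood apart from the other three by Dixon's 95% criterion; chance flags about 1 group in 20. In control siRNA cells the isolated values were the highest Psma7 in DMSO (library A, 159.0 FPKM), the highest Psma2 in tunicamycin (library A, 129.2 FPKM), the lowest Psmb1 in tunicamycin (library B, 155.9 FPKM) and the highest Psmd4 in tunicamycin (library C, 111.0 FPKM). With Son siRNA in tunicamycin they were the highest Psmb2 (library A, 148.9 FPKM), the highest Psmc6 and Psmd6 (library D, 143.4 and 75.71 FPKM), the lowest Psmd4 (library C, 102.4 FPKM) and the lowest Psme2 (library B, 95.39 FPKM). With Son siRNA in DMSO it was the highest Psme4 (library C, 25.24 FPKM).

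The response to tunicamycin differed between Son siRNA and control siRNA cells for Psma2, by 0.1822 on the log2 scale, and Psmd1, by 0.1772, in limma's test of the difference. Psmd9 gave values of opposite sign with tunicamycin in the controls of the 2 experiments, with no overlap between media in either: −0.0699 (log2) in control siRNA cells, where it passed the test, and 0.1868 in control sgRNA cells, where it did not. Fitted without library C, the change in control sgRNA cells was again 0.1868 and was called raised (limma adjusted p = 0.00397). The difference between the experiments was not tested.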

How the results depend on the processing

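A pseudocount of 0.1 kept all 14 counts of called members within 1.5 times the reported ones, as well as the direction and call of all 157 values of named members. The siRNA response difference, 2 members as reported, gave 0 without the filter, 1 under median-ratio scaling, and 0 to 3 when 1 library was left out. The Son sgRNA label in DMSO, 1 as reported, gave 2 without the filter, 4 with the length trend removed, and 0 to 18 when 1 library was left out: 18 without library A of the Son sgRNA group and 3 without library C. In tunicamycin the label gave 2 in place of 0 with the length trend removed, and 0 to 3 when 1 library was left out, with 3 without library C of the Son sgRNA DMSO group. Tunicamycin in control sgRNA cells, 6 as reported, gave 21 with the length trend removed, and 4 to 21 when 1 library was left out, with 21 again without that library C. Directions turned with the length trend removed for Psmb5 (0.1232) and Psmb6 (0.009996) with tunicamycin in control siRNA cells, for Psmb6 in Son siRNA cells (0.03806), and for Psme2 with ponatinib (−0.02173, and −0.00424 under median-ratio scaling). The cause was not tested. Among all genes, the percentage of called genes that were raised moved under median-ratio scaling from 38.5 to 49.4 with tunicamycin in control siRNA cells, from 63.3 to 47.0 and 27.4 to 45.1 for the Son sgRNA label in DMSO and tunicamycin, from 63.2 to 48.5 with tunicamycin in control sgRNA cells, from 60.8 to 45.2 with nintedanib and from 65.8 to 48.2 with ponatinib. With a replicate block the drug counts were 37 (nintedanib), 37 (ponatinib), 23 (proflavine) and 34 (pyrvinium), each within 1.5 times. The correlation of deviations ran from −0.0667 to 0.147 over 30 same-number pairs, and from −0.143 to 0.149 over 60 other pairs. Whether the numbers pair the libraries cannot be told from these correlations. The siRNA and CRISPRa columns carry letters that match no replicate number of the labels. A replicate block by column letter, chosen after seeing the data, gave 2 members in place of 1 for the Son sgRNA label in DMSO and left the other 9 counts within 1.5 times. Correlations of same-letter deviations ran from −0.189 to 0.174 over 24 siRNA pairs and from −0.223 to 0.182 over 18 CRISPRa pairs. Pairs of unlike letters ran from −0.241 to 0.327 and from −0.17 to 0.261. Whether the letters pair the libraries cannot be told from these correlations either. Low precision of a few libraries per group limits what can be called, and depth is unknown.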
